A study of Mus musculus with 6 samples.

Results

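The granins and the enzymes that cut and trim prohormones form the cargo-handling side of the dense-core secretory granule. The 10 genes described here were Chga, Chgb, Scg2, Scg3, Scg5, Vgf, Pcsk1, Pcsk2, Pcsk1n and Cpe, chosen by symbol for that role among 37761 genes of the deposited table, and all 10 were found there. RNA sequencing compared 3 libraries of whole pancreas dissected from wild-type mouse embryos at e15.5 with 3 libraries of islets, the endocrine clusters of the pancreas, freed with collagenase from the pancreas of 12-week-old wild-type mice. Both groups carry the genotype label Wildtype, and no treatment, strain, sex or pooling of animals is stated in the sources used here. Separate animals are not named for the libraries of a group either, so the spread between them may be technical. The effects of age, tissue and isolation cannot be told apart here, since all of them changed at once, and in bulk RNA fewer cells of a type cannot be told apart from less RNA per cell.

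Granins are acidic, soluble proteins that aggregate in the trans-Golgi network, help to form dense-core granules and are themselves cut into peptides. Prohormones and granins are cleaved after pairs of basic residues by the convertases encoded by Pcsk1 and Pcsk2, after which carboxypeptidase E, encoded by Cpe, removes the exposed basic residues. In beta cells this route turns proinsulin into insulin, and in alpha cells Pcsk2 releases glucagon from proglucagon.

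Libraries held between 35059950 and 47346870 reads assigned to genes. The mesenchyme genes fixed as markers (Col1a1, Pdgfra, Wt1 and 7 others) summed to between 164534 and 189674 normalized counts in the embryonic libraries and between 1377 and 2849 in the islet libraries, with Nkx3-2 at 0 reads and Barx1 and Wt1 at 3 reads or fewer in the islets. The sum of 10 acinar markers, which include digestive enzymes, lay between 134231 and 190958 in the embryonic libraries and was higher in every islet library, at 662658 in islet library 2 and at 329118.5 and 260016 in libraries 1 and 3. All 8 erythroid markers were lower in the islets (sums of 34108 to 55708 at e15.5 and 4067 to 8683 in islets), with Hba-x and Hbb-y at 0 islet reads. Of 8 duct markers 3 were higher, 4 lower and 1 not called (sums of 22392 to 30326 at e15.5 and 41442 to 45405 in islets). The part of these other cell types in the results below was not tested. The second embryonic library had the highest value of the embryonic group for all 12 genes of the endocrine transcription factor list. That list includes the repressor gene Rest. It also had the highest value of 9 of 10 acinar genes, and its mesenchyme sum was the lowest of the embryonic group.

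All 10 genes were higher in the islets than in the embryonic pancreas. The log2 fold changes ran from 3.57 for Chgb to 8.25 for Scg2, with a median of 5.96, beside a median of −0.03 over the 21653 genes tested. Each of the 10 passed limma-trend at an adjusted p under 0.05, where 36.2% of all genes tested were called higher, 36.6% lower and 72.8% in either direction. The 10 genes were also called higher by edgeR and by DESeq2 on the recovered reads, as were 35.1% and 34.6% of all genes tested. In all 10 the lowest islet library lay above the highest embryonic library, as it did for 38.3% of the genes tested. A log2 fold change at or above that of Chgb, with a call, was seen in 3.88% of the genes tested, and one at or above that of Scg2 in 0.18%. Their combined share of the assigned reads was 0.0542 ± 0.00920% at e15.5 and 1.92 ± 0.0623% in adult islets (mean ± SD, n = 3 per group).

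**Figure D1:**
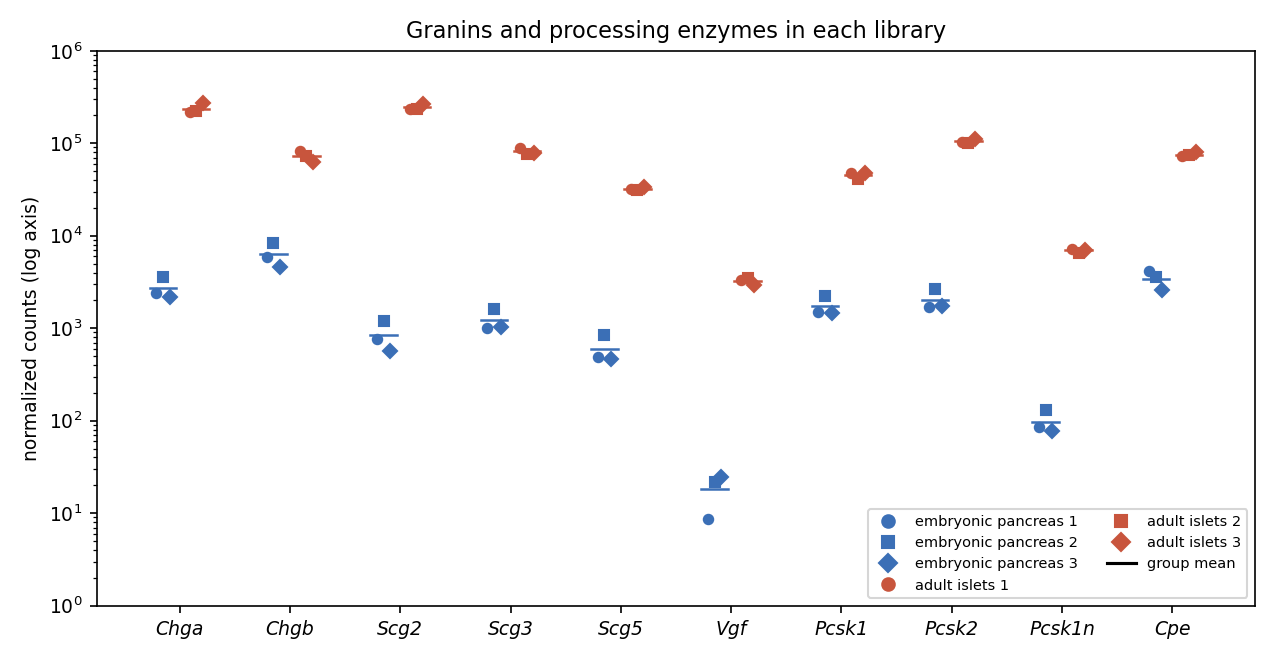
Normalized counts (log axis) of the 10 genes in each of the 6 libraries, with 1 point per library and a line at the group mean. The islet points of every gene lie above its embryonic points, Vgf is the lowest gene in both groups, and the embryonic points of 8 genes are highest in the second library.

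Values below are the authors' normalized counts, read counts divided by a size factor for each library, and are given for libraries 1, 2 and 3 of each group. Fold changes are islets over embryonic pancreas. Log2 fold changes come from log2(value + 1) and carry their standard error (SE).

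Among the granins, Scg2 had the steepest rise. Scg2 encodes secretogranin II, the precursor of the peptide secretoneurin, and lies on the minus strand of chromosome 1, 79434669 to 79440120 (ENSMUSG00000050711.7, GENCODE M21 on GRCm38). Scg2 was measured at 767, 1196 and 563 normalized counts in the embryonic libraries and at 235407, 237333 and 263620.0 in the islets. The islet libraries were within 1.12-fold of each other, and the ratio of the group means was 292 (log2 fold change of 8.25 with an SE of 0.23, adjusted p = 1.7e-08 by limma-trend). Vgf, whose product is a nerve growth factor inducible granule protein cut into several peptides, lies on the plus strand of chromosome 5, 137026392 to 137033351 (ENSMUSG00000037428.14). Vgf was at 8.64, 21.9 and 24.5 normalized counts in the embryonic libraries and at 3323, 3528.0 and 2956 in the islets. It was near the lower limit of what could be measured in the embryonic pancreas, where its value in the first library rested on 9 reads (exact Poisson 95% interval 4.1 to 17.1) against 30 in the third (20.2 to 42.8). The ratio of means of Vgf was 178 (log2 fold change of 7.52 with an SE of 0.33, adjusted p = 1.3e-07 by limma-trend), and these intervals cover counting error only.

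Chga and Chgb, the chromogranin A and B genes, rose to different extents. Chga (ENSMUSG00000021194.6, plus strand of chromosome 12, 102554969 to 102565028) encodes the precursor of pancreastatin and vasostatin. Chga was at 2432, 3558 and 2166 normalized counts in the embryonic libraries and at 215325, 222001.5 and 272749 in the islets, a ratio of means of 87.1 (log2 fold change of 6.47 with an SE of 0.19, adjusted p = 1.8e-08 by limma-trend). With quantile normalization the log2 fold change of Chga was 5.63. The third islet library was the highest for Chga. Chgb (ENSMUSG00000027350.8, plus strand of chromosome 2, 132781278 to 132795079) was at 5889, 8321 and 4604 in the embryonic libraries and at 82245, 73452.5 and 63144 in the islets. For Chgb the third islet library was the lowest. Its ratio of means was 11.6 (log2 fold change of 3.57 with an SE of 0.21, adjusted p = 6.0e-07 by limma-trend), the smallest of the 10 genes.

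Scg3 and Scg5 lay between these extremes. Scg3, encoding secretogranin III, which binds chromogranin A and cholesterol-rich granule membrane, is on the minus strand of chromosome 9, 75643189 to 75684056 (ENSMUSG00000032181.7). Scg3 was at 1005, 1615 and 1029.5 normalized counts in the embryonic libraries and at 89246, 76387 and 79400.4 in the islets, a ratio of means of 67.1 (log2 fold change of 6.10 with an SE of 0.18, adjusted p = 1.8e-08 by limma-trend). Scg5 encodes the chaperone that the Pcsk2 enzyme needs to mature and whose carboxy-terminal peptide inhibits it, and is on the minus strand of chromosome 2, 113776362 to 113829121 (ENSMUSG00000023236.7). Scg5 was at 486, 836 and 463 in the embryonic libraries and at 32174.5, 31105.5 and 33700.1 in the islets, a ratio of means of 54.3 (log2 fold change of 5.82 with an SE of 0.20, adjusted p = 3.6e-08 by limma-trend). In both genes the second embryonic library was the highest, and in neither did the groups come near each other.

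Of the convertases, Pcsk2 rose further than Pcsk1. Pcsk2 lies on the plus strand of chromosome 2, 143546156 to 143816285 (ENSMUSG00000027419.9). Pcsk2 was at 1696, 2663 and 1759.7 normalized counts in the embryonic libraries and at 103969.7, 101685.5 and 111725 in the islets, a ratio of means of 51.9 (log2 fold change of 5.73 with an SE of 0.17, adjusted p = 1.8e-08 by limma-trend). Of its exonic length, 4.5% is shared with the opposite-strand genes Pcsk2os1 and Pcsk2os2, and reads there cannot be assigned to a strand because no source says that strand was kept. Pcsk1, on the plus strand of chromosome 13, 75089826 to 75134861 (ENSMUSG00000021587.5), was at 1484, 2249.6 and 1473.5 in the embryonic libraries and at 47311, 41493 and 47575 in the islets. Its ratio of means was 26.2 (log2 fold change of 4.74 with an SE of 0.16, adjusted p = 3.6e-08 by limma-trend). Pcsk1 and Pcsk2 were both highest in the second embryonic library, at 1.52 and 1.54 times the mean of the others.

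Pcsk1n encodes proSAAS, a granin-like protein that carries an inhibitor of the Pcsk1 enzyme, and lies on the plus strand of chromosome X, 7919822 to 7924410 (ENSMUSG00000039278.10). Pcsk1n was at 84.5, 130.4 and 76.9 normalized counts in the embryonic libraries and at 7141, 6566 and 7083 in the islets, a ratio of means of 71.2 (log2 fold change of 6.18 with an SE of 0.18, adjusted p = 1.8e-08 by limma-trend). It shares 6.2% of its exonic length with the opposite-strand gene Eras, which had 1 read over the embryonic libraries and 4 over the islet libraries. Cpe, on the minus strand of chromosome 8, 64592542 to 64693054 (ENSMUSG00000037852.8), was at 4199.5, 3543.5 and 2573 in the embryonic libraries and at 71905, 74747.5 and 79404 in the islets. Cpe had its highest embryonic value in the first library, unlike the other enzymes, and its ratio of means was 21.9 (log2 fold change of 4.48 with an SE of 0.17, adjusted p = 5.2e-08 by limma-trend). The authors' deposited table gave log2 fold changes for the 10 genes that differed from these by at most 0.06.

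**Figure D2:**
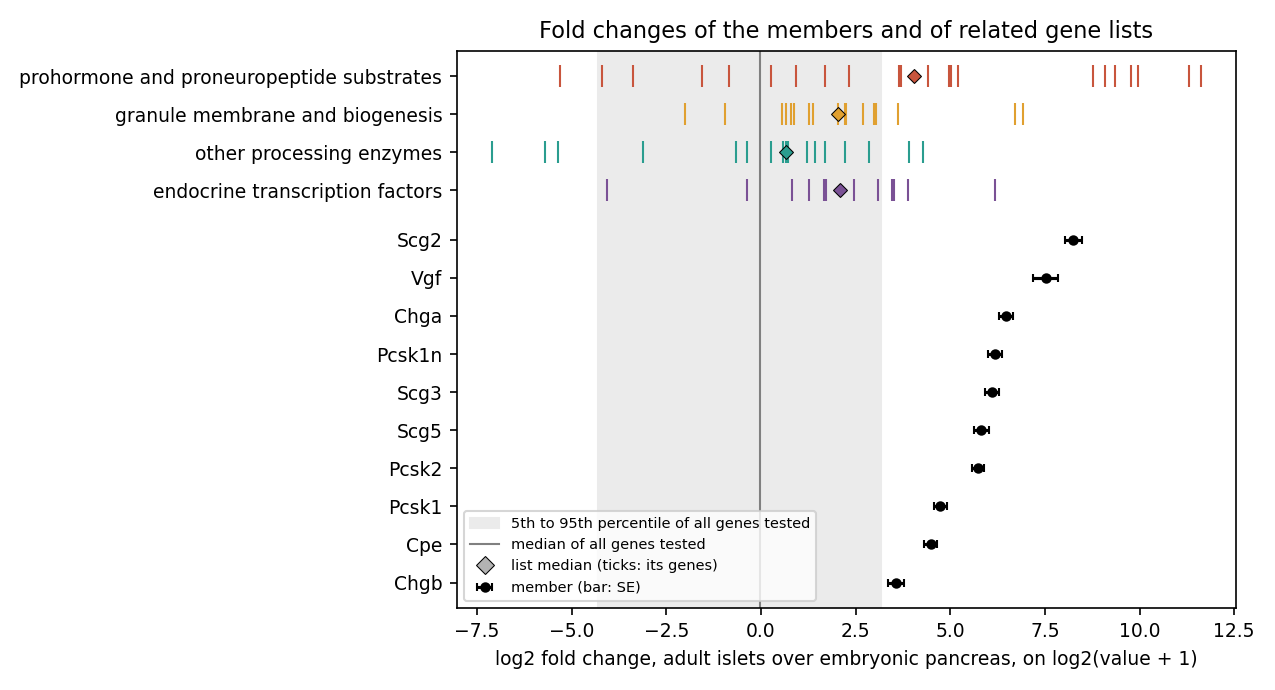
Log2 fold change (islets over embryonic pancreas) of the 10 genes as points with SE bars, and of 4 lists of related genes as ticks with a diamond at the list median; the grey band holds the 5th to 95th percentile of all 21653 genes tested. All 10 genes lie to the right of the band, which ends at 3.17, with Chgb at 3.57 nearest to it.

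The 10 genes did not scatter alike among libraries of a group. In the embryonic pancreas 8 of them were highest in the second library, Cpe was highest in the first and Vgf in the third. The second embryonic library was at between 1.52 and 1.799 times the mean of the others in those 8 genes, and at 1.05 times for Cpe. The summed level of 22 prohormone genes in that library was 1.77 times the mean of the others, while the mesenchyme sum was 0.886 times. The part of these differences between embryonic libraries in the values above was not tested. Without the second embryonic library, the log2 fold change of Scg2 was 8.54 and that of Cpe 4.52. In the islets the highest library was at between 1.08 and 1.302 times the lowest over the 10 genes. The second islet library, with the highest acinar sum, was the highest of the islets for Vgf alone.

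When values were divided by the merged exon length, so that genes can be set beside each other, the order of the genes differed between the groups. In the embryonic pancreas Chgb came first at 2289 ± 689 normalized counts per kb, followed by Cpe at 1318 ± 314 and Chga at 986 ± 268 (SD, n = 3). Cpe and Chga overlapped in range, with Cpe the higher within each of the 3 libraries. Scg3, Scg5, Scg2, Pcsk1 and Pcsk2 followed, from 444 down to 258 per kb, and each neighbouring pair of these overlapped in range. Within libraries the first gene of a pair was higher in all 3, except that Scg2 was above Pcsk1 in 2. Pcsk1n at 44.4 ± 13.2 and Vgf at 6.18 ± 2.86 were the lowest and stood apart. In the islets Scg2 at 97596 ± 6267 and Chga at 85882 ± 11395 normalized counts per kb came first and overlapped in range. Scg2 was the higher within each of the 3 islet libraries. Scg3, Cpe and Chgb came next, at 29831 ± 2456, 28882 ± 1451 and 26623 ± 3489, and their ranges overlapped. Scg3 was above Cpe in 1 islet library and Cpe above Chgb in 2. Scg5, Pcsk2, Pcsk1, Pcsk1n and Vgf then followed in that order, each apart from its neighbour, at 20603, 13375, 8112, 3160.0 and 1099.5 per kb.

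Set against the sum of all 10 genes per kb in the same library, Chgb made up 35.7 ± 1.65% at e15.5 but 8.49 ± 1.46% in the islets. Cpe went from 21.1 ± 4.76% to 9.17 ± 0.273%. The opposite was seen for Scg2, from 5.14 ± 0.664% to 31.0 ± 0.528%, and for Chga, from 15.48 ± 0.970% to 27.2 ± 2.18%. Pcsk2 held 4.07 ± 0.542% and 4.24 ± 0.0208% and Scg5 5.89 ± 0.783% and 6.54 ± 0.116%, and the groups overlapped in both. These shares do not depend on how libraries were scaled, but they do depend on the gene lengths. With the longest transcript in place of merged exons, Chga came before Scg2 and Cpe before Scg3 in the islets, Scg5 before Chgb in the islets, and Pcsk2 before Pcsk1, and both before Scg2, in the embryonic pancreas.

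**Figure D3:**
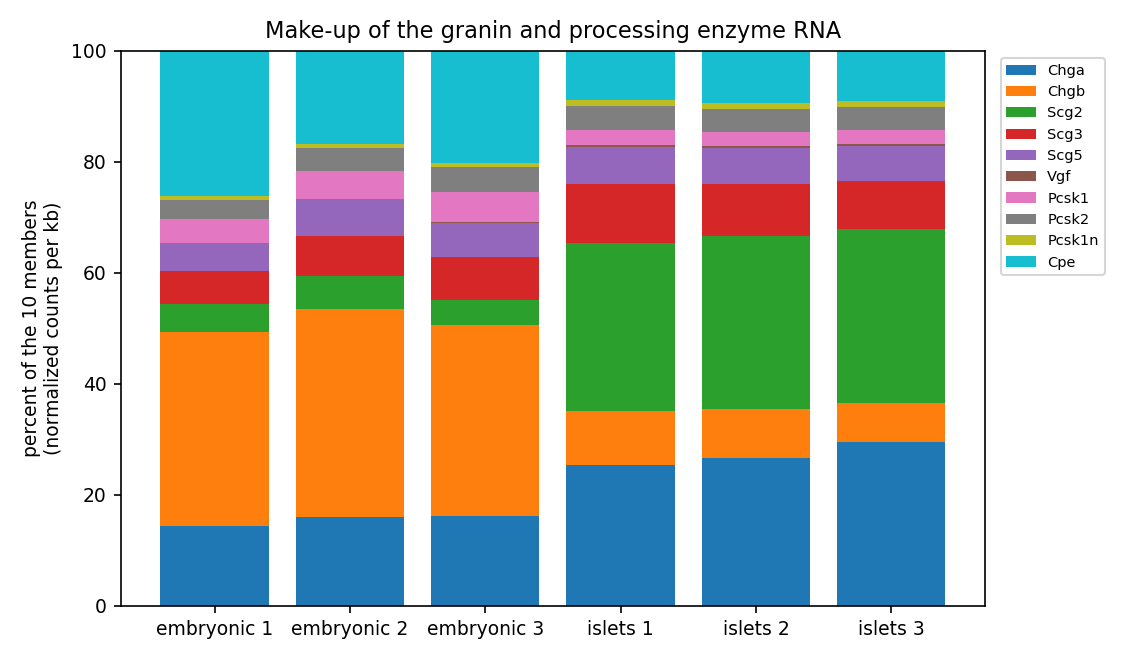
Stacked bars of each gene's percent of the summed normalized counts per kb of the 10 genes, for each of the 6 libraries. Chgb and Cpe fill most of the embryonic bars together with Chga, and Scg2 and Chga most of the islet bars.

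Ratios of 2 genes within a library were compared for 6 pairs. A two-sided exact permutation test of 3 against 3 libraries cannot go below p = 0.1, so no pair could pass a threshold of 0.05. The log2 ratio of Pcsk1 to Pcsk2 was −0.19, −0.24 and −0.26 in the embryonic libraries, against −1.14, −1.29 and −1.23 for the islets, so that Pcsk1 stood 1.99-fold lower relative to Pcsk2 in the islets (exact permutation p = 0.1, adjusted 0.12 over the 6 pairs). The gap between the groups was 0.99, beside an SD of 0.03 and 0.08 within them, a spread that may be technical only. The log2 ratio of Pcsk1 to the gene of its inhibitor, Pcsk1n, was 4.17 ± 0.08 at e15.5 against 2.71 ± 0.05 in the islets, with no overlap (exact permutation p = 0.1, adjusted 0.12). For Pcsk2 and the gene of its chaperone, Scg5, the log2 ratio lay between 1.67 and 1.93 in the embryonic libraries and was 1.69, 1.71 and 1.73 in the islets. The groups overlapped there (exact permutation p = 0.4, adjusted 0.40), and the difference of −0.09 ran between −0.15 and −0.03 with any single library left out.

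Among the granins, the log2 ratio of Chga to Chgb was −1.28, −1.23 and −1.09 in the embryonic libraries, against 1.39, 1.60 and 2.11 for the islets. Chgb thus had more reads than Chga in each embryonic library and fewer in each islet library, a 7.44-fold difference between the groups (exact permutation p = 0.1, adjusted 0.12). The log2 ratio of Scg2 to Scg3 was −0.57 ± 0.27 at e15.5 against 1.59 ± 0.17 in the islets, a 4.45-fold difference. That of Cpe to Chga was 0.34 ± 0.41 and −1.64 ± 0.12, a 3.97-fold difference. Neither of the last pairs overlapped between groups (exact permutation p = 0.1, adjusted 0.12, for each).

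**Figure D4:**
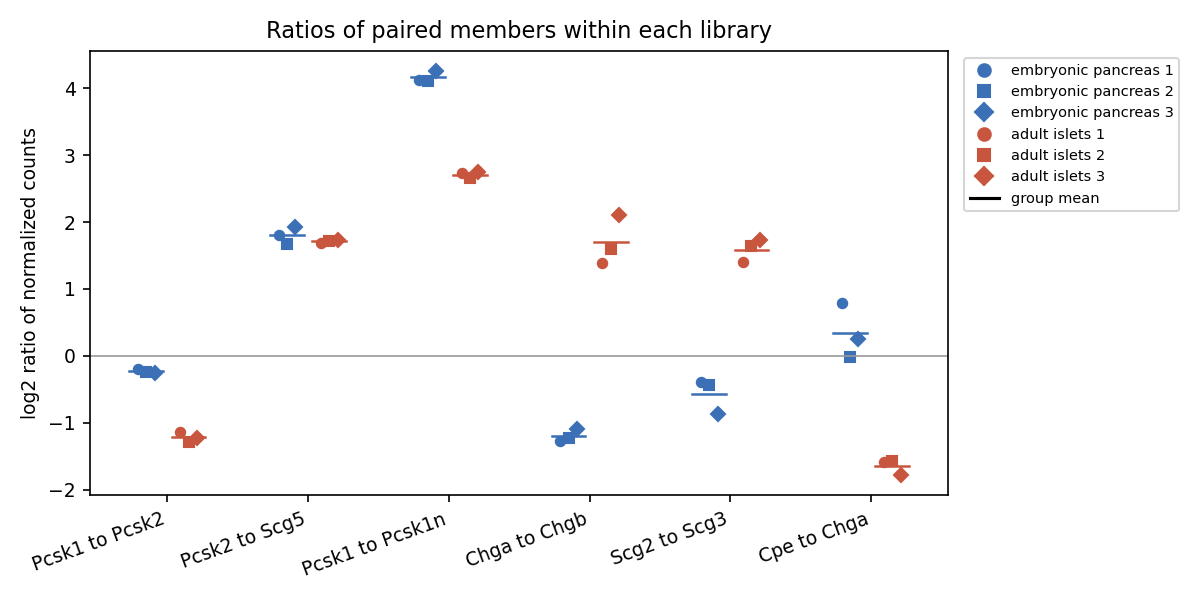
Log2 ratio of normalized counts of 6 pairs of genes within each library, with 1 point per library and a line at the group mean. The groups lie apart in 5 pairs, and the Pcsk2 to Scg5 points overlap.

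Promoter sequence was read for 8 of the 10 genes from RefSeq on GRCm38.p6, which is the build mm10, in windows from 250 bases before to 50 bases after an annotated start. The cyclic AMP response element, TGACGTCA, reads the same on both strands and is the site of the CREB family of transcription factors, which acts in neuroendocrine cells. It was found in Chgb, Scg2 and Pcsk1, 3 of 8 genes, beside 2.0% of the 27025 genes and 1.8% of the 32851 windows in the table. Counted from the start, it began at −72 in Chgb, at −68 in Scg2 and at −78 in Pcsk1. The first 5 letters alone, TGACG, or their reverse complement, were found in 7 of 8 genes, all but Pcsk1n, beside 23.0% of all genes and 20.8% of all windows, and every full element holds this shorter one on each strand. The stretches of 30 bases around the match closest to the full element upstream of the start are shown because they let the full and partial matches be compared, 5′ to 3′ on the strand of the gene, with the matched letters in capitals.
Scg2: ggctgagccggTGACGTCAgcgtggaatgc
Chgb: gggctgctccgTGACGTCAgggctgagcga
Pcsk1: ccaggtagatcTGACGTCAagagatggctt
Chga: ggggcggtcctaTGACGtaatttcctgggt
Scg3: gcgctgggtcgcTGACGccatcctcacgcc
Scg5: aaaggaggtaaaTGACGttcataggggtcg
Pcsk2: ctggcgggcgcgCGTCAcccgggctggcgc
The stretches lie at chr1:79440076-79440105 (minus strand) for Scg2, chr2:132781559-132781588 (plus) for Chgb, chr13:75089768-75089797 (plus) for Pcsk1, chr12:102554885-102554914 (plus) for Chga, chr9:75684069-75684098 (minus) for Scg3, chr2:113829249-113829278 (minus) for Scg5 and chr2:143546087-143546116 (plus) for Pcsk2.

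In the windows, the match of Chga began at −44, that of Scg3 at −30 and that of Scg5 at −175, and Pcsk2 held the reverse complement from −34. The GENCODE M21 starts of Scg2 and Chgb lie upstream of the RefSeq starts, so that their stretches fall inside the span of the gene in that annotation. The E-box CANNTG, which reads the same on both strands and is bound by basic helix-loop-helix factors such as the Neurod1 product, was found in 6 of 8 genes, beside 75.0% of all genes and 72.3% of all windows. TATAAA, on either strand, was found in Chga alone among the 8, beside 15.7% of all genes and 13.6% of all windows. The match in Chga lay at positions 6 to 11, downstream of the RefSeq start. These matches describe letters in a window and were not tested against the values.

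The other genes of the route were described by 4 lists fixed by role. Of 17 other processing enzyme genes, 11 passed upward, 6 downward and 0 failed the test, at a median log2 fold change of 0.66 beside −0.03 for all genes tested. Over all genes tested, 36.2% passed upward and 36.6% downward, so falls in this list were about as frequent as among all genes. Pcsk4, a convertase gene known from germ cells, rose from 44.4 ± 4.16 to 888 ± 106 normalized counts (a log2 fold change of 4.29). Pam, whose product amidates peptide ends and thereby completes many neuropeptides, rose from 7352 ± 588 to 110466 ± 6863 (log2 fold change 3.91). Cpz and Cpxm1, relatives of Cpe, fell, Cpz from 253 ± 30.9 to 3 reads over the islet libraries (embryonic over islets 242, 95% counting interval 82.4 to 1174) and Cpxm1 from 797 ± 29.6 to 14.7 ± 3.61 (log2 fold change −5.70). Cpz and Cpxm1 fell while Cpe rose, and the mesenchyme markers, all 10 of 10 lower in the islets, moved with them; their part in these falls was not tested.

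Of 17 genes of the granule membrane and of granule formation, 15 passed upward, 2 downward and 0 failed the test, at a median log2 fold change of 2.03. Among all genes tested, 36.2% passed upward and 36.6% downward. Ptprn encodes a granule membrane protein of the receptor-like phosphatase family, which is an autoantigen in type 1 diabetes. Ptprn rose from 228 ± 40.7 to 27353 ± 1281 normalized counts (a log2 fold change of 6.92). Slc30a8, the zinc transporter of insulin granules, rose from 198 ± 70.5 to 20281 ± 4707 (log2 fold change 6.70). Rab26 fell from 273 ± 37.9 to 68.8 ± 20.3, and the vesicular monoamine transporter gene Slc18a2 fell from 512 ± 37.2 to 264 ± 12.6 (log2 fold change of Slc18a2 −0.95).

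Of 22 genes of prohormones and proneuropeptides, the substrates of the convertases, 15 passed upward, 5 downward and 2 failed the test, at a median log2 fold change of 4.05. The shares over all genes tested were 36.2% upward and 36.6% downward. The largest rises were those of Pdyn and Ucn3 (log2 fold changes 11.61 and 11.30), which encode prodynorphin and urocortin 3. They rested on 8 and 4 embryonic reads, so that their size depended on the pseudocount and normalization, from 10.50 to 12.11 for Pdyn and from 9.67 to 12.82 for Ucn3, and their order changed at a pseudocount of 0.1. Cck, the cholecystokinin precursor gene, fell from 251 ± 73.0 to 5.69 ± 3.65 normalized counts, and Penk, the proenkephalin gene, fell from 593 ± 31.8 to 32.1 ± 7.04 (log2 fold changes −5.32 and −4.19). Substrate genes thus moved in both directions while the 10 genes moved in one.

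Of 12 genes in the endocrine transcription factor list, which includes the repressor gene Rest, 10 passed upward, 1 downward and 1 failed the test. The list median log2 fold change was 2.08, against 5.96 for the granin and processing genes. For all genes tested the shares were 36.2% upward and 36.6% downward. Mafa, a factor of mature beta cells, rose from 86.6 ± 44.3 to 5866 ± 367 normalized counts, and St18 had a log2 fold change of 3.87. Rest, which encodes a repressor of neuronal genes known to act on several granin genes, was the one that fell, from 5294, 5712 and 5679.6 in the embryonic libraries to 353, 411.5 and 241 in the islets (log2 fold change of −4.08 with an SE of 0.17, adjusted p = 1.1e-07 by limma-trend). All 10 mesenchyme markers were lower in the islets as well, at a median log2 fold change of −7.09, and their part in the fall of Rest was not tested. Neurons and nerve fibres of the embryonic pancreas also hold granins. Of 12 neuron markers 11 were tested, of which 5 were higher, 4 lower and 2 not called, beside the shares of all genes given above. Their summed level was 4663 to 5252 normalized counts in the embryonic pancreas and 16809 to 19399 in the islets. Among them Snap25, of the fusion machinery that islet cells share with neurons, was at 222 ± 35.0 in the embryonic pancreas and at 5808 ± 329 in the islets (log2 fold change 4.71). The part of neurons in the embryonic granin values was not tested.

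The 5 genes with profiles over the 6 libraries nearest to the median profile of the granin and processing genes were Sstr3, Vipr1, Adh1, Upb1 and Casr, of 6827 genes with a mean of at least 1000 normalized counts. Likeness was the root mean square difference of log2(value + 1) values centred on each gene's own mean, and it ran from 0.13 for Sstr3 to 0.17 for Casr. Sstr3 and Vipr1 encode receptors for somatostatin and for vasoactive intestinal peptide, and Casr the calcium-sensing receptor. Within the 10 genes, Scg5 and Scg3 were nearest to that profile at 0.08 and 0.09, and Scg2, at 1.16, and Chgb, above it, were farthest. With 6 libraries in 2 groups, likeness mostly measures the fold change between the groups.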

How the data were processed

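RNA from 6 mouse samples was sequenced. Per the labels' protocols, libraries were prepared with a TruSeq kit. The submitters' processing notes name TopHat 1.3.2, Cufflinks 1.2.1, DESeq2 and the build mm10; no source used here names the read counter or its annotation. In their 1 table the authors deposited a normalized signal per gene, the read count over a library size factor. The deposited table also holds the authors' log2 fold change and its error, a linear fold change ratio, a test score, a p-value and an adjusted p-value; of these the log2 fold change alone was compared. In every library 100.0% of values were whole multiples of 1 step within 0.01 reads, so reads could be recovered; in the second islet library the step of 0.992 lies too near 1 for that to be told from rounding. The 5 entries for unassigned reads, 40.7 to 54.6% of a library, were left out.

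Values were tested with limma-trend (limma 3.58.1, R 4.3.3) on log2(value + 1), keeping genes that reached 10 normalized counts in 3 or more libraries, with Benjamini-Hochberg adjustment over all genes tested. Simulated counts were also fitted, with few genes changed, unlike these data, so they do not show how the fit behaves here. Count models (edgeR 4.0.16, DESeq2 1.42.0) were run on the recovered reads as alternatives. Ratios used exact permutation tests (SciPy 1.17.1). Exon lengths came from GENCODE M21. Named genes were the 10 genes, the 2 with the largest rise and fall among called genes of each related list, and the 5 nearest in profile; Snap25 and the opposite-strand genes were chosen after their values were seen. The genes and lists were chosen with earlier results of these data known. Protein sequence was not used here, and values of 1 further marker gene are not reported here.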

Additional observations from a re-analysis of the deposited data

How the results depend on the processing

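All 10 genes were called higher under every one of 15 alternatives: no filter or a filter at 50 normalized counts, pseudocounts of 0.1 or 5, quantile normalization, scaling that leaves out each group's 20 most abundant genes, edgeR, DESeq2, the replicate number as a block, and leaving out each of the 6 libraries. Their log2 fold changes ranged over 3.06 to 3.80 for Chgb, 7.53 to 8.54 for Scg2 and, widest of the 10, 5.63 to 6.68 for Chga, and the largest adjusted p of any of the 10 genes under any alternative was 2.0e-05. Leaving out the 20 most abundant genes moved the all-gene median from −0.03 to −0.26 (log2) and the share of calls that were higher from 49.7 to 41.1%. Genes called numbered 15770 in the main analysis and 14552 to 16460 with 1 library fewer. Replicate numbers did not pair the samples (correlations of same-numbered deviations 0.037, 0.077 and 0.005, and not every library was closest to its own number), and with the number as a block 15612 genes and all 10 of the granin and processing genes were called. Of the related lists, Pcsk7 lost its call in 11 alternatives and Cartpt in 5, while Npy gained one in 5; Cpxm2 and Nts dropped below the filter at 50 and Fev gained a call under 1 scaling. With the longest transcript, 8 of 20 levels per kb moved by more than 1 SD. Differences of ratios kept their sign in every alternative run. Among the 10 genes, embryonic reads were fewest for Vgf and Pcsk1n, at 60 and 307 over the group.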

Other observations

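Values assigned to the opposite-strand genes at the Pcsk2 locus were also higher in the islets. No source says that strand was kept, so reads of Pcsk2 may be counted among theirs. The islet mean was 915 normalized counts for Pcsk2os1 beside 105793 for Pcsk2. The part of Pcsk2 reads in the rises below was not tested. Pcsk2os1 went from 62.4, 76.2 and 66.2 normalized counts in the embryonic libraries to 914, 846 and 986 in the islets (log2 fold change of 3.73 with an SE of 0.14, adjusted p = 5.7e-08 by limma-trend). Pcsk2os2 went from 43.8 ± 14.1 to 469 ± 67.2 (SD, n = 3; log2 fold change of 3.44 with an SE of 0.26, adjusted p = 3.5e-06 by limma-trend). Both rose less than Pcsk2, at 5.73, and a test of that difference was not run.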
